A study of Mus musculus with 9 samples.

Results

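The genes described are 10 members of fatty acid synthesis and desaturation: Acss2, Acly, Acaca, Fasn, Elovl5, Elovl6, Scd1, Scd2, Fads1 and Fads2. They were chosen by name, as the enzymes that make acetyl-CoA and malonyl-CoA, build and lengthen fatty acid chains, and insert double bonds. Each is represented by 1 transcript cluster, the set of array probes for 1 gene locus, and Acaca, with 2 clusters, by the one with the higher mean. The 10 stand among 19938 genes with a cluster that carries a single symbol. The study used 9 Affymetrix gene arrays, with RNA of splenic conventional dendritic cells (cDC) purified by sorting from 129SvEv/Tac mice, in a search for genes that BATF transcription factors control. Wild-type (WT) cDC2 and Batf-/- Batf3-/- double-knockout (DKO) cDC2 were each measured resting and activated, with 2 arrays in each of these 4 groups, and resting WT cDC1 with 1 array. For activation, 1 h with IFN-gamma (100 ng/ml) was followed by 3 h with LPS of E. coli (1 µg/ml). In the DKO mice both genes are disrupted in every cell, so the cDC2 also came from a spleen whose other cells lack them. Nothing in the labels tells whether a group's 2 arrays are separate mice, so the p-values rest on the spread of these samples alone and that spread may be technical. Whether resting cells were cultured for as long as activated cells is not stated either, so time in culture and the stimulus cannot be told apart.

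Fatty acid synthesis turns citrate or acetate into cytosolic acetyl-CoA, carboxylates it to malonyl-CoA and joins these units into palmitate. Elongases then lengthen the chain and desaturases place double bonds in it, which sets how fluid the membranes and how usable the stored lipids are. Most of these genes are known targets of the sterol regulatory element binding proteins (SREBPs), and several also of the liver X receptors (LXRs). In dendritic cells the pathway is known for supplying membrane to the endoplasmic reticulum and Golgi during activation.

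Because several members moved together, their promoters are shown first. RefSeq promoter windows on GRCm38.p6, from 250 bases before to 50 bases after the annotated start, were at hand for 7 members: Acss2, Acly, Acaca, Fasn, Elovl5, Elovl6 and Fads2. The 3 others are Scd1, Scd2 and Fads1. On both strands, the CCAAT box (CCAAT) lay in 4 of the 7 windows (Acly, Acss2, Elovl5 and Fasn), against 37.4% of 32851 windows of all genes. The GC box (GGGCGG) lay in 3 (Acly, Acss2 and Fads2), against 35.7%. The E-box CACGTG lay in 1 (Elovl5), against 7.15%. The sterol element in the form TCACNCCAC was in none of the 7 and in 1.24% of all windows. The LXR element DR4, a repeat of AGGTCA with 4 bases between, was in none of the 7 and in 0.0152% of all windows. These matches are letters in a window, not measured sites. The 250 bases before the start are printed for Acss2, Acly and Fads2, 5′ to 3′ on the gene's strand, with GC and CCAAT boxes of either strand in capitals.
Acss2 (chr2:155517793-155518042, plus strand): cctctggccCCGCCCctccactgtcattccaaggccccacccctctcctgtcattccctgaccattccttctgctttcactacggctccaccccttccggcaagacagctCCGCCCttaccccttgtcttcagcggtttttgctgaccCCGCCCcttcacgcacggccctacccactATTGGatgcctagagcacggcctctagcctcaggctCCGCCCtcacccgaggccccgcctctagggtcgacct
Acly (chr11:100528001-100528250, minus strand): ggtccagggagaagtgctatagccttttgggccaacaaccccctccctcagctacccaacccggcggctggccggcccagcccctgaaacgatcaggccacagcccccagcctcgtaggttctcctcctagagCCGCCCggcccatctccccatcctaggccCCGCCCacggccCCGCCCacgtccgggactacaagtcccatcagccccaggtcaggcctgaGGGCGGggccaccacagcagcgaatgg
Fads2 (chr19:10101504-10101753, minus strand): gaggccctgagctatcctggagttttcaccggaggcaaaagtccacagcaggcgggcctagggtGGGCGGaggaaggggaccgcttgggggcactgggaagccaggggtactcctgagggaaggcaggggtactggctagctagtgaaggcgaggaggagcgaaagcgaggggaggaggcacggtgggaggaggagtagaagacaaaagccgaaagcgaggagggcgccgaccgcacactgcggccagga
For Fasn, 25 bases around its CCAAT boxes are shown, since 2 of the 3 boxes, on opposite strands, overlap.
Fasn box at 86 to 90 bases before the start (chr11:120824623-120824647, minus strand): gcgcgccgccATTGGgccaccgaga
Fasn boxes at 55 to 62 bases before the start (chr11:120824595-120824619, minus strand): gcctcggtgtCCAATTGGtttcgat
Acss2 held 4 GC boxes and 1 CCAAT box before its start, Acly 4 GC boxes and Fads2 1 GC box.

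The labels were checked first. Batf read 5.31 to 5.44 (log2 intensity) in the 4 DKO arrays and 6.74 to 9.07 in the 4 WT cDC2 arrays, and Batf3 read 6.43 to 7.17 and 7.58 to 9.92, so the arrays did not overlap in either gene. Neither difference passed the test as the mean of both states (limma adjusted p = 0.126 and 0.148), and whether the probes lie in the deleted exons is not stated. A gene was tested if its mean was above the median of all named clusters, 5.94 on the log2 scale, in at least 1 group, which 10728 genes met. The 5 general cDC markers were above this level in every group. Of 9 cDC2 markers, 4 or 5 were above it in the cDC2 groups and 2 in the cDC1 array, and of 8 cDC1 markers 2 to 4 and 8. Across genes, r between replicates was 0.969 to 0.980.

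All 10 members met the brightness rule, but Scd1 met it only through the cDC1 array. The mean of each of the others was above 5.94 in all 5 groups. The means of Acss2 in activated DKO cDC2 (5.96) and of Elovl6 in activated WT cDC2 (5.97) lay just above it. The groups of highest mean were resting cDC2 for 7 members and cDC1 for Scd1, Fads1 and Fads2. The span between the highest and the lowest group mean ran from 0.42 for Elovl6 to 3.81 for Fads1 on the log2 scale. Levels of different genes come from different probes and were not set against each other.

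**Figure D1:**
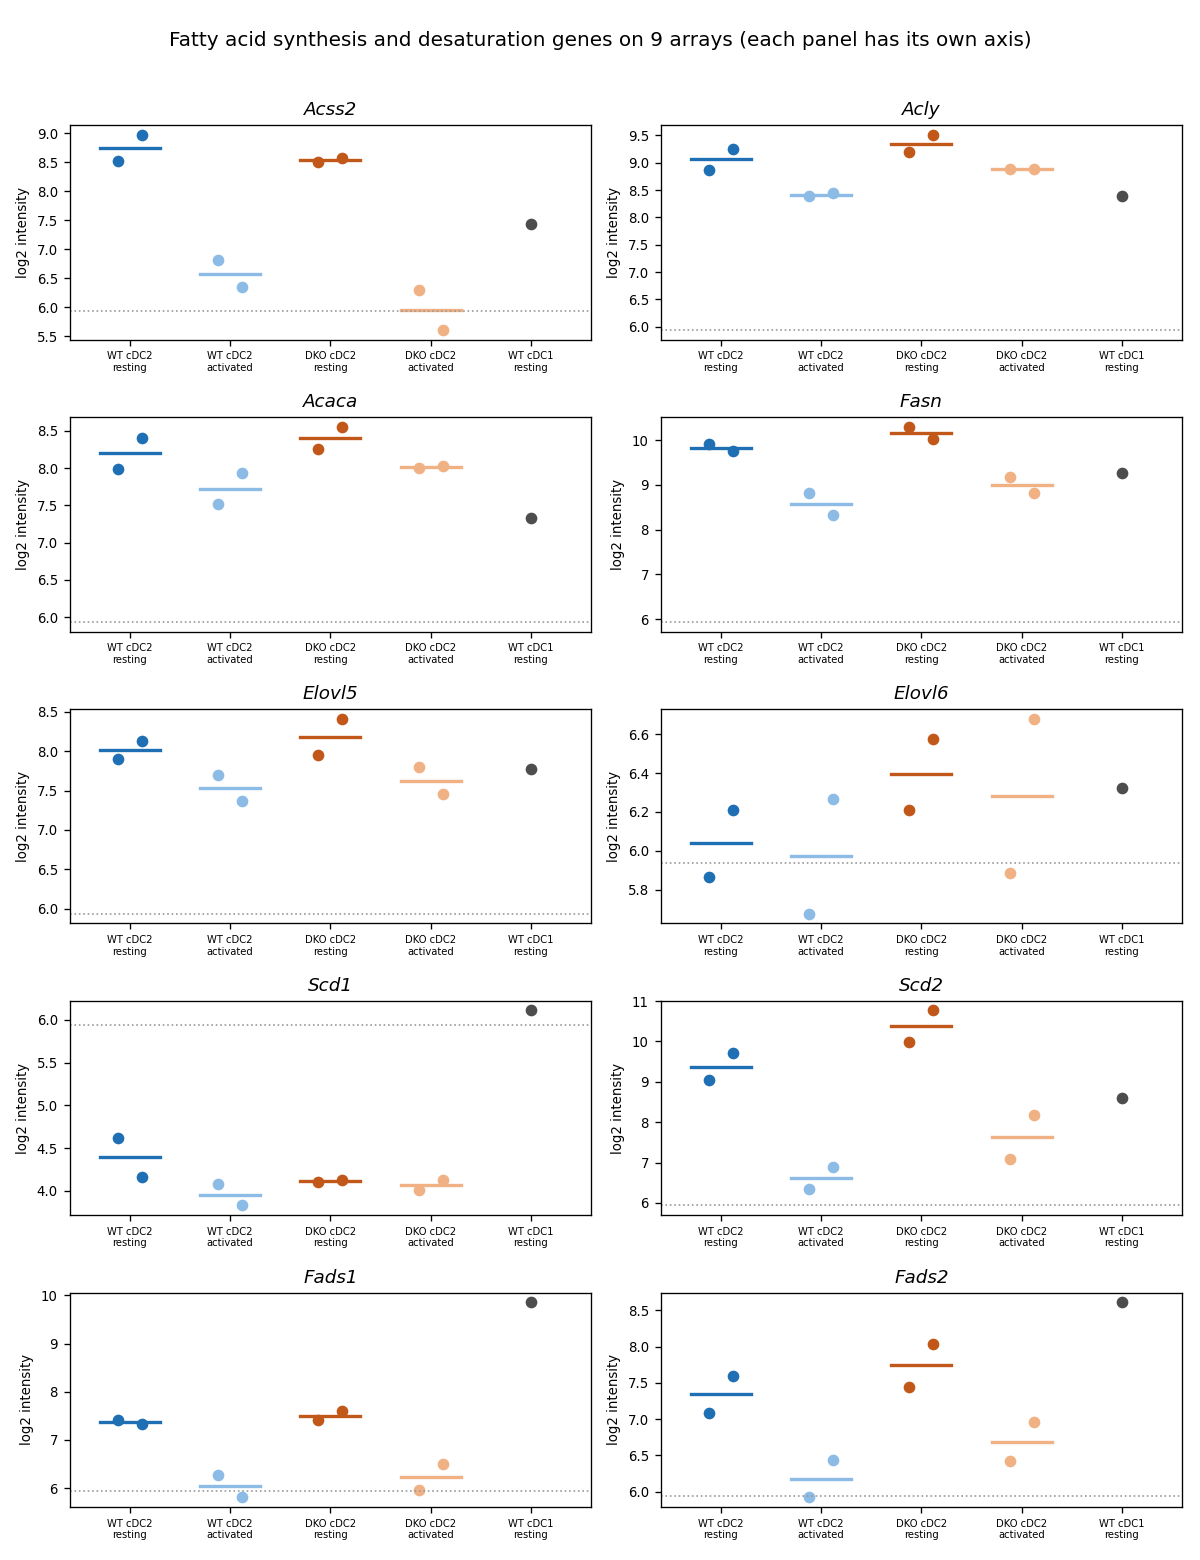
Log2 intensity (vertical axis, a separate scale in each panel) of the 10 genes on the 9 arrays, by group; points are arrays, bars are means of 2 arrays, and the dotted line is the brightness level of 5.94. Acss2, Fasn, Scd2 and Fads1 lie lower in both activated groups than in both resting groups, and Fads1, Fads2 and Scd1 are highest in cDC1.

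After activation, RNA of the pathway was lower at its entry, at chain synthesis and at both kinds of desaturase, in WT and in DKO cDC2. Scd2 fell 6.74-fold in WT and 6.67-fold in DKO cells, Acss2 4.48-fold and 5.98-fold, Fads1 2.51-fold and 2.40-fold, and Fasn 2.39-fold and 2.24-fold. Scd1, which was under the brightness level in cDC2, is left out of the counts for cDC2. Of the 9 others these 4 passed the limma test in each genotype, where 6.57% of all genes tested fell in WT and 7.9% in DKO cells. All 9 differences were below 0 in both genotypes, as were 60.1% and 61.4% of all genes, with a median of -1.16 in WT and -1.05 in DKO cells, against -0.07 and -0.09 over all genes tested. With Scd1 the medians were -0.91 and -0.80. As the mean of both genotypes, 7 of the 9 fell, where 21.7% of all genes did.

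Acss2 makes acetyl-CoA from acetate. It read 8.52 and 8.97 in resting WT cDC2 (replicates 1 and 2) and 6.81 and 6.36 in activated WT cDC2. In DKO cells it read 8.51 and 8.57 at rest and 6.30 and 5.61 after activation. Every activated array was lower than every resting array, and the second activated DKO array was under the brightness level. The difference was -2.16 (SE 0.28, adjusted p = 0.0111) in WT and -2.58 (adjusted p = 0.00484) in DKO cells.

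Acly, which splits citrate into acetyl-CoA, read 8.88 and 9.26 in resting and 8.39 and 8.44 in activated WT cDC2, and 9.19 and 9.51 against 8.89 and 8.88 in DKO cells. Within each genotype the groups did not overlap, but the activated DKO arrays lay within the range of the resting WT arrays. It fell by 0.56 as the mean of both genotypes (adjusted p = 0.0143). In WT cells alone the difference was -0.65 (adjusted p = 0.055) and in DKO cells -0.46 (adjusted p = 0.108), neither past the threshold. Acaca, the carboxylase that makes malonyl-CoA and commits carbon to synthesis, read 7.99 and 8.40 in resting and 7.51 and 7.93 in activated WT cDC2. In DKO cells it read 8.26 and 8.55, then 8.0 and 8.03. Activated arrays were lower within each genotype, by means of -0.47 (95% confidence interval -0.96 to 0.01) and -0.39 (-0.88 to 0.09), and neither passed. The second Acaca cluster, not used for the tests, had group means of 6.59 at rest and 6.18 after activation in WT and 6.67 and 6.45 in DKO cells.

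Fasn encodes the synthase that builds palmitate. It read 9.91 and 9.75 in resting and 8.81 and 8.34 in activated WT cDC2, and 10.30 and 10.03 against 9.18 and 8.81 in DKO cells. All 4 resting arrays were above all 4 activated arrays. The difference was -1.26 (SE 0.21, adjusted p = 0.0215) in WT and -1.17 (adjusted p = 0.0184) in DKO cells.

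The elongases moved less. Elovl5, which lengthens polyunsaturated chains, read 7.90 and 8.12 in resting and 7.70 and 7.37 in activated WT cDC2, and 7.96 and 8.41 against 7.80 and 7.46 in DKO cells. No activated array reached a resting one. It fell by 0.52 as the mean of both genotypes (adjusted p = 0.0406), but did not pass in either genotype alone. Leaving out any of 7 of the 8 cDC2 arrays ended the call in the mean (adjusted p 0.0518 to 0.114), and without the first resting DKO array it held (adjusted p = 0.0371). After quantile normalization (adjusted p = 0.0726) and with no brightness rule (adjusted p = 0.0655) it did not pass. Elovl6, which lengthens palmitate to stearate, read 5.87 and 6.21 in resting and 5.68 and 6.27 in activated WT cDC2, and 6.21 and 6.58 against 5.88 and 6.68 in DKO cells. The groups overlapped in both genotypes, and the intervals (-0.84 to 0.71 and -0.89 to 0.67) include changes in either direction.

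The stearoyl-CoA desaturases place the first double bond in saturated chains, and only Scd2 was bright in cDC2. Scd2 read 9.04 and 9.71 in resting and 6.35 and 6.89 in activated WT cDC2. In DKO cells it read 9.99 and 10.77 at rest and 7.09 and 8.19 after activation. All resting arrays were above all activated arrays, and it had the widest span over the cDC2 groups of the 10 members, 3.75 between resting DKO and activated WT means. The difference was -2.75 (SE 0.46, adjusted p = 0.0218) in WT and -2.74 (adjusted p = 0.0153) in DKO cells. Scd1 read 3.83 to 4.61 on all 8 cDC2 arrays, under the brightness level, so its differences there were not read. The genes are close paralogs, and how far their probes share signal was not tested.

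Fads1 and Fads2 place further double bonds in polyunsaturated chains, on the route to arachidonic acid. Fads1 read 7.42 and 7.32 in resting and 6.28 and 5.81 in activated WT cDC2, and 7.41 and 7.59 against 5.97 and 6.51 in DKO cells. Its 4 activated arrays lay below its 4 resting arrays. The difference was -1.33 (SE 0.22, adjusted p = 0.0232) in WT and -1.26 (adjusted p = 0.0186) in DKO cells. Fads2 read 7.08 and 7.60, then 5.92 and 6.43 in WT, and 7.44 and 8.04, then 6.42 and 6.96 in DKO cells. These groups did not overlap either. It fell by 1.11 as the mean of both genotypes (adjusted p = 0.0134), while the differences in WT (-1.16, adjusted p = 0.066) and DKO cells (-1.05, adjusted p = 0.0756) did not pass. Fads1 and Fads2 are neighbours on chromosome 19, between Fen1 and Fads3. Neither Fen1 (0.59, adjusted p = 0.0948) nor Fads3 (-0.11, adjusted p = 0.552) passed in the mean of both genotypes.

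Activated arrays did not overlap resting ones, on the lower side, for 8 of the 9 members in WT, 8 in DKO and 6 over all cDC2 arrays, where 36.4%, 39.3% and 23.3% of all genes did so. Same-numbered arrays deviated together, and with the replicate number as a block 7 of the 9 fell in each genotype, adding Acly, Acaca and Fads2, and 8 in the mean, adding Acaca. The same fit called 23.9%, 25% and 35.7% of all genes lower. The calls in a single genotype rest on few arrays. Fewer were made when 1 array was left out, among the members and among all genes. The differences then ran, in WT, from -2.39 to -1.94 for Acss2, -1.49 to -1.02 for Fasn, -3.09 to -2.42 for Scd2 and -1.56 to -1.09 for Fads1. In DKO cells they ran from -2.93 to -2.23, -1.35 to -0.98, -3.29 to -2.19 and -1.53 to -0.99 for the same genes. Among all genes, 705 fell and 426 rose in WT cDC2, and after quantile normalization 482 fell and 440 rose.

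**Figure D2:**
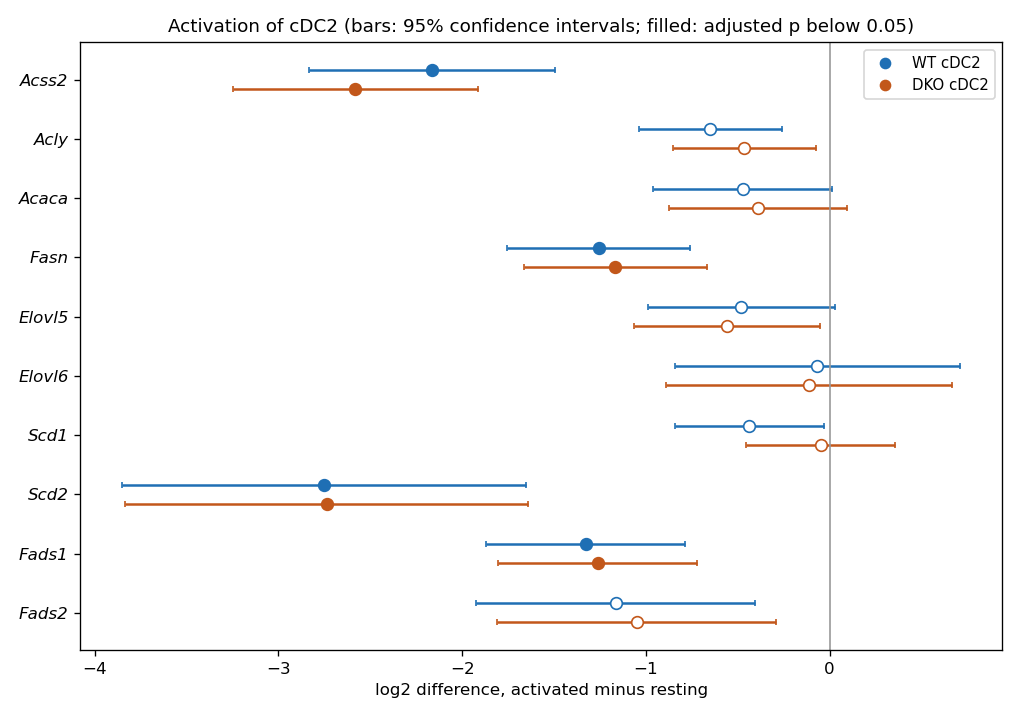
Log2 difference, activated minus resting (horizontal axis), for the 10 genes in WT and DKO cDC2; bars are 95% confidence intervals of the limma fit and filled points have adjusted p below 0.05. Acss2, Fasn, Scd2 and Fads1 are filled in both genotypes, and the intervals of the genotypes overlap for every gene.

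The size of the fall did not differ between genotypes past the threshold for any member. Over all genes the test of the difference between responses called 0% (0 of 10728 by limma, with 121 at an unadjusted p under 0.05; 0 with the replicate block, with 368). The difference, DKO response minus WT response, was 0.01 for Scd2 with an interval of -1.54 to 1.57, so a gap of over 2-fold in either direction is not excluded. It was -0.42 (-1.36 to 0.53) for Acss2, 0.09 (-0.61 to 0.80) for Fasn, 0.07 (-0.70 to 0.83) for Fads1 and 0.11 (-0.96 to 1.19) for Fads2. For Acly, Acaca, Elovl5 and Elovl6 it ran from -0.08 to 0.18.

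The other genes of the pathway were taken from lists, whose counts stand beside the shares of all genes. In WT cDC2 3.97% of all genes rose and 6.57% fell, and in DKO cells 5.82% rose and 7.9% fell. With the block these shares were 11.4% and 23.9% in WT and 13% and 25% in DKO cells. Of 11 other desaturases, elongases and elongation-cycle enzymes tested, 1 fell and 0 rose in WT cDC2, and 1 fell and 2 rose in DKO cells. Cyb5a, the cytochrome that feeds electrons to desaturases, fell by 0.91 (adjusted p = 0.0355) and by 0.78 (adjusted p = 0.0437). Hacd2, a dehydratase of the elongation cycle, rose by 0.89 in DKO cells (adjusted p = 0.00453), as did Elovl7 (0.48, adjusted p = 0.0402). In WT cells Hacd2 read 9.52 and 9.46 at rest and 9.74 and 9.86 after activation, also without overlap, but did not pass. Elovl7 read 6.56 and 6.39 at rest in WT cells and 6.39 on both activated arrays. As the mean of both genotypes 1 rose, Hacd2 (0.60, adjusted p = 0.00199), where 10.6% of all genes did, and 5 fell, among them Tecr, the reductase that ends each elongation cycle (-0.94, adjusted p = 0.0437), the sphingolipid desaturase Degs1 (-0.76, adjusted p = 0.0223) and the cytochrome reductase Cyb5r3 (-0.64, adjusted p = 0.0369). With the block, 5 fell in each genotype, and 1 rose in WT and 2 in DKO cells.

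Of 15 genes for citrate, acetyl-CoA and NADPH supply, 2 fell in each genotype, the pentose phosphate enzyme Tkt (-0.60, adjusted p = 0.0326; -0.67, adjusted p = 0.0178) and the lactate carrier Slc16a3 (-0.79, adjusted p = 0.0112; -0.84, adjusted p = 0.00703). None passed as higher in WT and 1 did in DKO cells, Pdha1 of pyruvate dehydrogenase (0.43, adjusted p = 0.0467). In WT cDC2 Pdha1 read 7.56 and 7.63 at rest and 7.92 and 8.11 after activation, also without overlap, but did not pass. With the block 6 fell in each genotype, and 2 rose in WT and 1 in DKO cells.

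Of 18 genes of fatty acid breakdown, 2 rose and 2 fell in WT and 2 rose and 3 fell in DKO cells. Cpt1a, which carries acyl groups into mitochondria, rose by 0.74 (adjusted p = 0.04) and 1.08 (adjusted p = 0.0115), and the dehydrogenase Acadl rose by 0.74 (adjusted p = 0.00891) and 0.85 (adjusted p = 0.00429). Eci2, an isomerase for unsaturated chains, fell by 0.69 (adjusted p = 0.0339) and 0.75 (adjusted p = 0.0201). With the block 6 and 7 fell, and 3 rose in each.

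Of 24 genes of glycerolipid and phospholipid assembly, storage and release bright in cDC2, 4 fell and 1 rose in WT. In DKO cells 5 fell and 3 rose. Chpt1 was under the brightness level in cDC2 and is left out. The lysosomal lipase Lipa fell by 2.08 in WT (adjusted p = 0.0257) and fell by 2.70 in DKO cells (adjusted p = 0.00911), and Lpcat1, which loads acyl chains onto lysophosphatidylcholine, by 1.02 (adjusted p = 0.045) and 1.22 (adjusted p = 0.0221). Pcyt1a, of phosphatidylcholine synthesis, and the lipid droplet coat gene Plin3 fell too, by 0.73 to 1.03. With the block the counts were 5 fallen and 6 risen in WT, and 8 and 8 in DKO cells. Of 11 acyl-CoA synthetases, thioesterases and fatty acid carriers, the uptake receptor Cd36 was under the brightness level on all cDC2 arrays (4.10 to 5.35) and was tested only because of the cDC1 array, so its cDC2 differences were not read. Of the 10 others 0 passed in either genotype alone. As the mean of both genotypes the carrier Slc27a1 fell by 1.06 (adjusted p = 0.0143) and the thioesterase Acot9 rose by 0.41 (adjusted p = 0.0141). With the block 2 fell in WT and 1 in DKO cells, and 2 rose in each.

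Genes of cholesterol synthesis, the neighbouring SREBP pathway, fell as well: 9 of 18 genes fell in WT and 7 in DKO cells, and 0 rose in either. Mvd fell by 1.42 (adjusted p = 0.0144) and 1.54 (adjusted p = 0.008), and Dhcr7, the last enzyme of the route, by 1.32 (adjusted p = 0.0185) and fell by 1.61 (adjusted p = 0.00788). The list's medians were -0.60 and -0.53. With the block 15 and 12 fell.

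The RNA of the SREBP genes themselves moved in opposite directions. Of 23 regulators and direct LXR targets bright in cDC2, 1 rose and 6 fell in each genotype. Mlxipl was under the brightness level in cDC2 and is left out. Srebf1, which encodes the SREBP that chiefly drives fatty acid synthesis, read 7.95 and 8.04 in resting and 9.03 and 9.10 in activated WT cDC2, and 8.14 and 8.16 against 9.12 and 8.88 in DKO cells. All activated arrays were above all resting arrays. It rose by 1.07 (SE 0.11, adjusted p = 0.00707) in WT and 0.86 (adjusted p = 0.008) in DKO cells, while Fasn, Acss2, Scd2 and Fads1 fell. Srebf2, chosen here after its values were seen as the partner gene, fell by 0.48 (adjusted p = 0.0362) and 0.50 (adjusted p = 0.0252). Nr1h3, which encodes LXR-alpha, read 8.35 and 8.95 in resting and 7.31 and 7.75 in activated WT cDC2, and 8.34 and 8.23 against 7.05 and 7.52 in DKO cells. It fell by 1.12 (adjusted p = 0.046) in WT; in DKO cells the difference was -1.0 (adjusted p = 0.0529; with the block, adjusted p = 0.00559). Mylip, an LXR target that degrades the LDL receptor, fell by 0.96 (adjusted p = 0.0339) in WT and fell by 1.17 (adjusted p = 0.0145). The array reads RNA only, and SREBP processing was not measured. With the block 9 fell and 2 rose in each genotype.

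**Figure D3:**
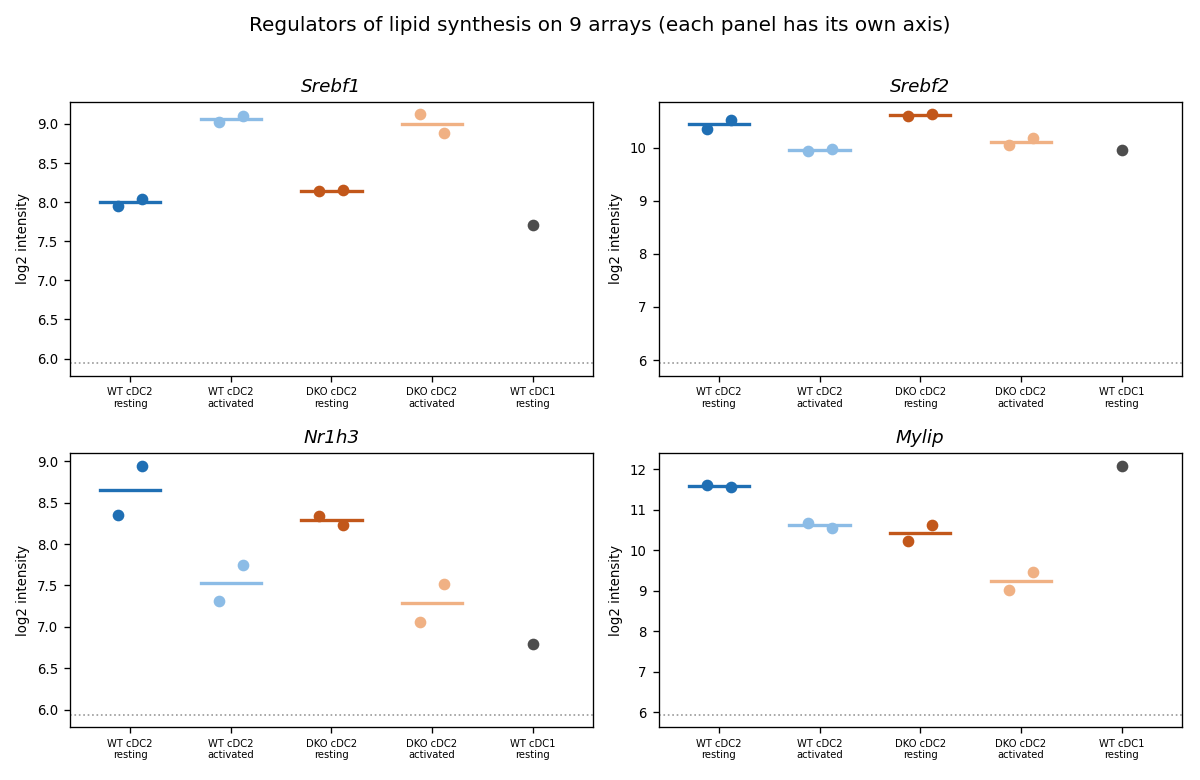
Log2 intensity (vertical axis, a separate scale in each panel) of Srebf1, Srebf2, Nr1h3 and Mylip on the 9 arrays, by group; points are arrays, bars are means of 2 arrays, and the dotted line is the brightness level of 5.94. Srebf1 is higher in both activated groups, from 8.88 to 9.12 against 7.95 to 8.16 at rest, while Srebf2, Nr1h3 and Mylip are lower after activation within each genotype.

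Some marker lists, of cDC and of other cells, differed with activation as well. The mean of the 5 general cDC markers was 10.89 to 10.94 in resting and 10.44 to 10.57 in activated WT cDC2. In DKO cells it was 10.94 to 10.96 and 10.44 to 10.50. The mean of the 9 cDC2 markers was 6.70 to 6.92 at rest and 6.53 to 6.66 after activation in WT cells. In DKO cells it was 6.59 to 6.80 and 6.37 to 6.42. The mean of the 7 macrophage markers, given below, was higher after activation in both genotypes. The mean of the 8 cDC1 markers was 5.95 to 6.12 in resting and 6.45 to 6.61 in activated WT cDC2, and 5.58 to 5.81 and 6.11 to 6.34 in DKO cells. Most of this came from Irf8, a transcription factor gene that was 3.98 higher in the mean of both genotypes. The mean of the 7 other cDC1 markers was 5.71 to 5.85 at rest and 5.69 to 5.83 after activation in WT cells, and 5.29 to 5.43 and 5.32 to 5.49 in DKO cells. The mean of the 4 monocyte markers measured went from 6.75 to 7.14 down to 6.38 to 6.71 in WT cells, with 3 and then 2 above the brightness level. Of 3 adipocyte markers measured, 1 was above it in every group, with means between 4.78 and 4.96. In bulk samples fewer cells of a type and less RNA per cell cannot be told apart, and the part of these markers in the falls was not tested.

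Scd2 read higher in DKO than in WT cDC2 in both states, but no member passed the test between genotypes. Its mean was 2.0-fold higher in resting and 2.02-fold higher in activated DKO cells, a difference that moved by over 1.5 times when single arrays were left out. In each of the comparisons at rest, in activated cells and as the mean of both states, 0 of the 9 members passed, where 0.0186% of all genes (2 of 10728) did. Members with an unadjusted p under 0.05 numbered 0, 1 and 3, of 707, 638 and 1157 genes. The median difference of the 9 was 0.28 at rest and 0.31 after activation, against 0.01 over all genes in each.

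The Scd2 arrays given above did not overlap between genotypes in either state. The difference was 1.00 (SE 0.46, interval -0.10 to 2.10, adjusted p = 0.806) at rest and 1.02 (SE 0.46, interval -0.08 to 2.11, adjusted p = 0.861) after activation. Without the second DKO array it was 0.61 at rest and 0.47 after activation, without the first 1.39 and 1.57, and without the first resting WT array 0.67. Between arrays of the same number it was 0.94 and 1.06 at rest and 0.74 and 1.30 after activation. With the replicate number as a block, Scd2 passed at rest (adjusted p = 0.038), where 0.317% of all genes were called higher, in activated cells (adjusted p = 0.044; 0.28%) and over both states (adjusted p = 0.00696; 2.98%). The fold is the same in both fits, and the SE at rest is 0.46 without and 0.14 with the block.

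Fasn was 0.33 higher at rest (interval -0.17 to 0.83) and 0.42 higher in activated DKO cells (-0.07 to 0.92), with no overlap of arrays in either state. As the mean of both states it was 0.38 higher (adjusted p = 0.417; with the block, adjusted p = 0.0338). Fads2 was 0.46 higher in the mean (adjusted p = 0.538; with the block, adjusted p = 0.0108), with overlapping arrays. Between same-numbered arrays its differences were 0.36, 0.44, 0.50 and 0.53. With the block, 3 members were thus called in the mean of both states, where 1 was called in each state alone.

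Acly was 0.28 and 0.47 higher, Acaca 0.21 and 0.29, Elovl5 0.17 and 0.09, Elovl6 0.36 and 0.31, and Fads1 0.13 and 0.19, at rest and after activation. Of the 9 members, 7 were higher in DKO than in WT cells in all 4 same-numbered pairs, where 18.9% of all genes were: Acly, Acaca, Fasn, Scd2, Elovl5, Elovl6 and Fads2. Acss2 went the other way, lower in all 4 pairs, by -0.21 at rest (interval -0.88 to 0.46) and -0.63 after activation (-1.29 to 0.04), and did not pass in either fit. Arrays did not overlap, on the higher side, for 2 members at rest (Fasn and Scd2), 4 after activation (Acly, Acaca, Fasn and Scd2) and 2 over both states, where 17.7%, 16.4% and 7.16% of all genes did so.

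**Figure D4:**
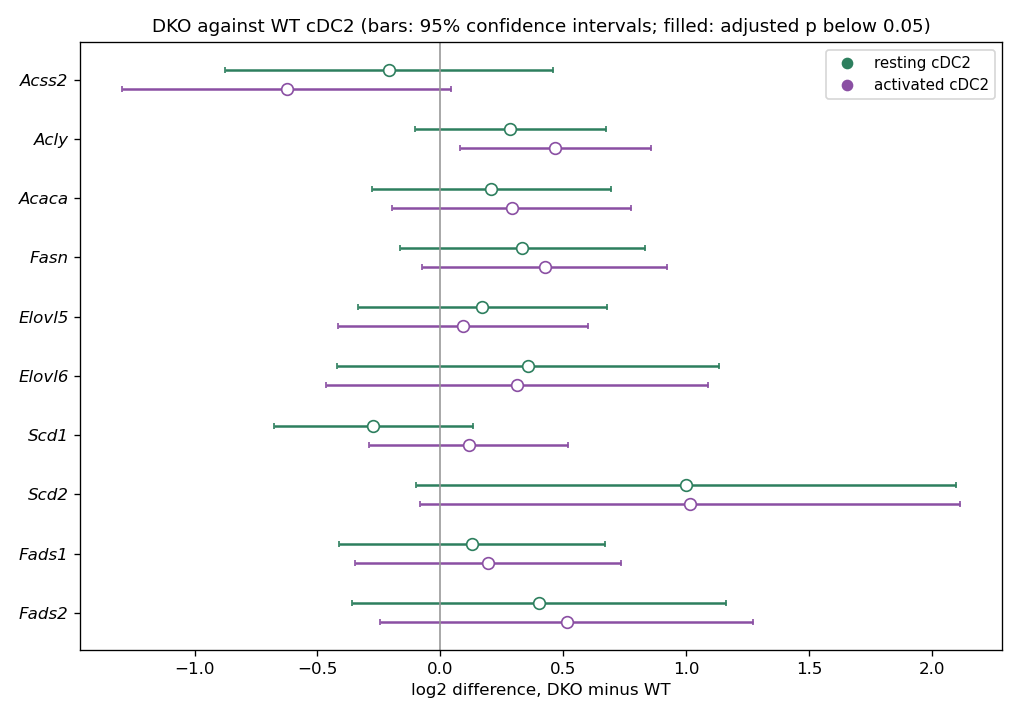
Log2 difference, DKO minus WT (horizontal axis), for the 10 genes in resting and activated cDC2; bars are 95% confidence intervals of the limma fit and open points did not reach adjusted p below 0.05. All points are open, Scd2 lies near 1.00 in both states and Acss2 lies below 0.

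Of the 7 lists of other lipid genes, 0 genes passed between genotypes. All 18 cholesterol synthesis genes read higher in DKO cells at rest (median 0.35) and over both states (median 0.38), where 54.2% and 53.5% of all genes did, also after quantile normalization, after median centring and with an offset of 32. With the block 1 of 18 passed as higher at rest, where 0.317% of all genes did, and 9 over both states, where 2.98% did. Idi1, an isomerase of that route, was 1.02 higher in the mean (adjusted p = 0.109; with the block, adjusted p = 0.00483). Mylip was lower in DKO cells, at 10.22 and 10.62 against 11.60 and 11.55 at rest, a difference of -1.16 (adjusted p = 0.263; with the block, adjusted p = 0.0393), and by -1.38 after activation (adjusted p = 0.382; with the block, adjusted p = 0.0375). Srebf1 differed by 0.15 at rest and -0.06 after activation, with intervals of -0.11 to 0.42 and -0.33 to 0.20, and Nr1h3 by -0.37 and -0.24. Of the fatty acid carriers, Fabp5 was 0.52 higher in the mean (adjusted p = 0.127; with the block, adjusted p = 0.00986). With the block, which called 2.98% of all genes higher and 2.6% lower in the mean, the regulator list held 1 gene higher and 3 lower in the mean, fatty acid oxidation 3 and 1, lipid assembly 0 and 4, the supply list 0 and 2, and the other elongation and desaturation genes 0 and 0.

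Several marker lists read lower in DKO cells with no overlap of arrays. In both states these were the lists of macrophages, plasmacytoid dendritic cells and cDC1, whose array means are given above; Cadm1 had the widest genotype difference of the cDC1 markers, at -1.02. The 4 monocyte markers did so at rest, at 6.58 to 6.61 in DKO against 6.75 to 7.14 in WT cells, and the 9 cDC2 markers after activation, at 6.37 to 6.42 against 6.53 to 6.66. The mean of 7 macrophage markers was 6.08 to 6.29 in resting WT and 5.73 to 5.86 in resting DKO cDC2, and 6.30 to 6.32 against 5.91 to 5.99 after activation. Of these markers 5 were above the brightness level in WT groups, and 3 and 4 in resting and activated DKO cells; Mertk and Cd5l were under it throughout. The mean of 5 plasmacytoid dendritic cell markers was 7.84 to 8.24 against 7.38 to 7.64 at rest and 7.99 to 8.09 against 7.74 to 7.91 after activation, with Siglech and Ly6d under the brightness level in all groups. Their part in the genotype differences was not tested.

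In resting cDC1, Fads1 was 5.58-fold higher than in resting WT cDC2 and Scd1 was above the brightness level in no other group. The enzymes of acetyl-CoA supply and chain synthesis read lower, as did Scd2 and Elovl5, but none of these passed. With a single cDC1 array the fit assumes that it varies as the cDC2 arrays do. Of the 9 members bright in cDC2, 1 passed as higher in cDC1, Fads1, where 7.08% of all genes did. None passed on the lower side (0 of 9 by limma, with 5 of 9 at an unadjusted p under 0.05 in either direction), where 6.56% did. The median difference of the 9 was -0.56, and with Scd1 -0.40, against -0.01 over all genes.

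Fads1 read 9.85 in cDC1 against 7.42 and 7.32 in resting WT cDC2, a difference of 2.48 (SE 0.27, adjusted p = 0.00419). Fads2 read 8.61 against 7.08 and 7.60, a difference of 1.27 (interval 0.34 to 2.20, adjusted p = 0.08), short of the threshold. The neighbour Fen1 differed by 1.21 (adjusted p = 0.0959) and Fads3 by 0.06 (adjusted p = 0.911).

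Scd1 read 6.11 in cDC1 against 4.61 and 4.17 in resting WT cDC2, which lie under the brightness level, so no fold is given. The log2 difference was 1.72 as fitted (SE 0.21, adjusted p = 0.00525) and 0.93 with an offset of 32 before log2. Scd1 entered the test only because of this array, so a difference in this direction had to be present, and its values are a description. Scd2 read 8.59 against 9.04 and 9.71 (difference -0.79, interval -2.13 to 0.56). When only these 3 arrays were fitted, no gene tested passed in either direction, Fads1 and Scd1 included.

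Acss2 read 7.44 in cDC1 against 8.52 and 8.97 (difference -1.30, adjusted p = 0.0537). Acaca was lower by a difference of -0.87 (adjusted p = 0.0678), Acly by -0.67 (adjusted p = 0.075) and Fasn by -0.56 (adjusted p = 0.197). The cDC1 array lay below both resting WT cDC2 arrays for each of these 4 genes and for Scd2 and Elovl5, as for 40% of all genes, and none passed. Elovl5 (-0.25, interval -0.87 to 0.38) and Elovl6 (0.28, interval -0.67 to 1.24) did not pass either.

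**Figure D5:**
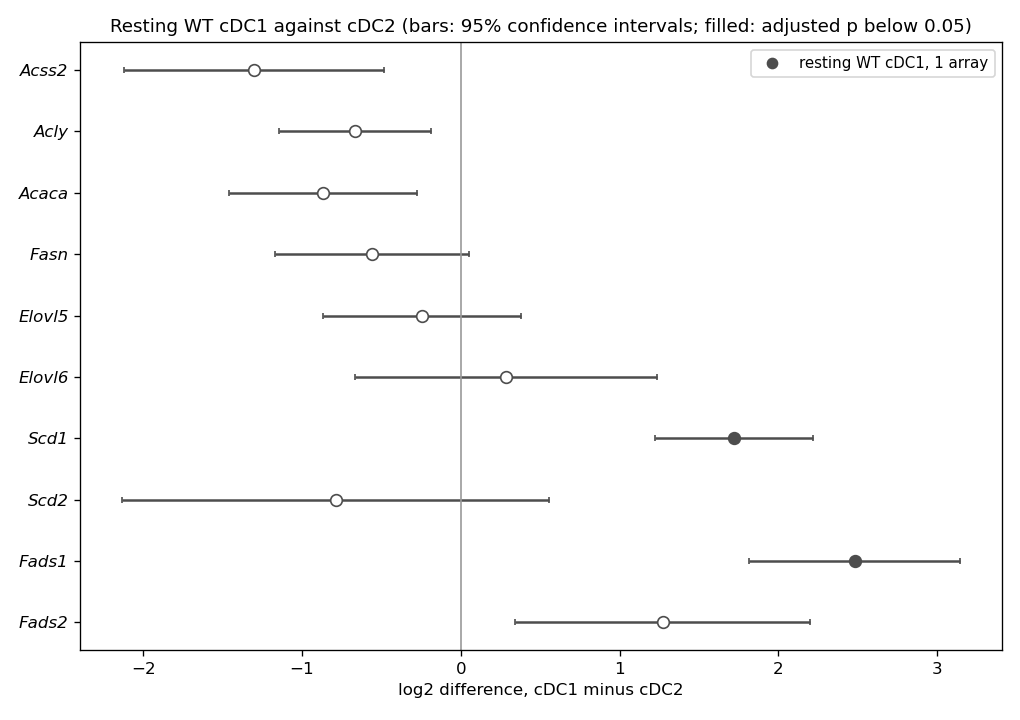
Log2 difference, resting WT cDC1 minus resting WT cDC2 (horizontal axis), for the 10 genes, from 1 cDC1 and 2 cDC2 arrays; bars are 95% confidence intervals of the limma fit and filled points have adjusted p below 0.05. Fads1 at 2.48 and Scd1 at 1.72, the latter under the brightness level in cDC2, are filled, and the 4 genes of acetyl-CoA supply and chain synthesis lie below 0.

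Partner genes differed between the subsets too, in the fit of all arrays. None of them passed with only the arrays compared in the fit. Cyb5a was 1.44 higher in cDC1 (adjusted p = 0.0124), Hacd2 0.61 (adjusted p = 0.0179) and Me1, a source of NADPH, 0.85 (adjusted p = 0.0159). Nr1h3 was lower, by a difference of -1.86 (adjusted p = 0.0152), as was the mitochondrial acetyl-CoA synthetase Acss1 (-0.91, adjusted p = 0.0236). Of the lipid assembly genes, Agpat3 was 2.44 higher (adjusted p = 0.000627) and Lpcat4 1.75 higher (adjusted p = 0.00147), and Pcyt1a lower, at -2.54 (adjusted p = 0.000834). Cd36, also a cDC1 marker, read 10.01 in cDC1 against 5.35 and 5.22 in resting WT cDC2, under the brightness level. The fatty acid carrier gene Fabp5 was lower in cDC1, at -1.21. Of 18 genes of fatty acid breakdown, 12 read higher in cDC1 and 5 lower, where 5238 and 5479 of all 10728 genes did. Among the higher were Eci1 (1.35), Eci2 (0.99) and Slc25a20 (0.79). Of the 18 cholesterol genes 3 passed as lower and 0 as higher, where 6.56% and 7.08% of all genes did. Among markers of other cells, the mean of 5 plasmacytoid dendritic cell markers was 7.09 in cDC1 against 7.84 to 8.24 in resting WT cDC2, and that of 5 neutrophil markers 6.36 against 5.82 to 5.99, with 2 of 5 above the brightness level in both subsets. Of 5 B-cell and plasma cell markers measured, 1 was above it in cDC1 and 0 in cDC2, at means of 5.27 and 4.72 to 4.81. The part of these markers in the subset differences was not tested.

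By the shape of the 5 group means, each centred on its own mean, Acly and Acaca were the closest pair of members, with a root mean square difference of 0.12 on the log2 scale. Fads1 and Fads2 differed by 0.60 and Scd1 and Scd2 by 1.44. Scd1 lay under the brightness level in all cDC2 groups, so its shape here, and its match below, rest on the 1 cDC1 array. For each member whose means spanned over 1 log2 unit, the closest other gene was sought among all genes tested. It was Thoc1 for Acaca (0.019), Utp4 for Fasn (0.048), Pgap6 for Fads2 (0.067), Cx3cl1 for Scd1 (0.076), Gclc for Fads1 (0.22), Pld4 for Acss2 (0.27) and Dcstamp for Scd2 (0.51). Scd2 therefore had the least close match of these 7 members. The measure is not scaled to a member's span, which was 3.75 for Scd2, 3.81 for Fads1 and 1.07 for Acaca.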

How the data were processed

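RNA of 9 samples was labelled with the WT Pico kit, made for picogram inputs, and hybridised, per the labels' protocols. Per the submitters' processing notes, the authors used RMA in Affymetrix Expression Console (versions not given in the sources used here). The deposited table holds linear intensity, whose median on an array was 53.4 to 55.6, and log2 was taken. RMA gives arrays a shared distribution, so differences in total RNA between groups are not visible. The number of arrays limits the precision.

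Groups and replicate numbers come from the sample titles. Of 28853 clusters, 21789 carried 1 gene symbol in the platform annotation, 1621 several and 5443 none. The first kind was used, with the cluster of highest mean for 999 genes that had several. Differences were tested in limma 3.58.1 (R 4.3.3), two-sided, in 1 fit of the 5 groups with 4 residual degrees of freedom, Benjamini-Hochberg adjusted over 10728 genes, with a threshold of 0.05, and checked on simulated data. The labels do not say what the replicate number marks. The deviations of same-numbered cDC2 arrays correlated at 0.45 to 0.69 in all 6 pairs of groups, so a fit of the 8 cDC2 arrays with the number as a block is given where it changed a call.

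The members and lists were chosen with earlier results of these data known. The members are named in each comparison, save Scd1 where its cDC2 values were not read. Genes of the lists were drawn from up to 4 per comparison past the threshold (up to 2 of smallest p where none passed). Not every such gene is named. The closest gene in pattern and the tested neighbours of the Scd and Fads members are named too.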

Additional observations from a re-analysis of the deposited data

How the results depend on the processing

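With the replicate block, the members called higher in DKO cells were 1 at rest, 1 after activation and 3 in the mean, and those called lower after activation were 7 in WT and 7 in DKO cells; the block changed no call of the difference between responses, and Acaca was the sole added call in the mean activation response. With only the arrays compared in the fit, 0 members were called lower in WT, 2 in DKO cells and 0 higher in cDC1. Of all 10728 genes this fit called 0 lower in WT, 314 lower in DKO cells and 0 higher in cDC1. It has fewer arrays. An offset of 32 before log2 shrinks dim differences by its construction. With it the WT activation median of all 10 members became -0.75, from -0.91. Acss2 was then the 1 member called lower in cDC1, where 704 of 10728 genes were. The response difference of Scd2 became -0.13. Leaving Scd1 out was chosen after seeing the data; the medians were then -1.16 (WT activation), -1.05 (DKO activation), -1.11 (their mean) and -0.56 (cDC1). Quantile normalization, median centring, the mean of a gene's clusters, trend with robust moderation and no brightness rule moved no member count by over 1.5 times.

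Leaving out 1 array at a time reduced the calls of lower RNA after activation in each genotype, among the members and among all genes. The medians of all 10 members, Scd1 included, were 0.25 (DKO against WT at rest), -0.80 (DKO activation) and 0.07 (response difference) with all arrays. With 1 array left out they ran from 0.080 to 0.38, -0.91 to -0.54 and -0.13 to 0.26. No called difference changed sign. Among uncalled ones that did, DKO against WT at rest ran from -0.057 to 0.40 for Elovl5 and -0.43 to 0.017 for Acss2. After activation it ran from -0.0765 to 0.26 for Elovl5, -0.088 to 0.71 for Elovl6, -0.078 to 0.46 for Fads1 and -0.011 to 0.24 for Scd1, and in the mean from -0.19 to 0.032 for Scd1. Activation differences of Elovl6 ran from -0.36 to 0.23 in WT, -0.51 to 0.29 in DKO cells and -0.29 to 0.11 in the mean, and of Scd1 in DKO cells from -0.11 to 0.010. Response differences ran from -0.13 to 0.29 for Acaca, -0.53 to 0.56 for Scd2, -0.21 to 0.34 for Fads1, -0.19 to 0.41 for Fads2, -0.14 to 0.33 for Fasn, -0.31 to 0.15 for Elovl5, -0.44 to 0.35 for Elovl6 and -0.0072 to 0.38 for Acly. Where a group is left with 1 array, it is assumed to vary as the others do. Scd1 lay under the brightness level in cDC2, so its changes of sign there were not read. Elovl6 lay near that level, which limits what its values can show.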
